A study of Homo sapiens with 6 samples.

Results

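The 10 genes described here encode the high mobility group (HMG) chromatin proteins: HMGA1 and HMGA2, HMGB1, HMGB2 and HMGB3, and HMGN1 to HMGN5. They were chosen by name, as the entries of the deposited gene table whose gene name equals one of these symbols, and all 10 were found among its 58735 genes. RNA had been sequenced from HCT-8, a human colorectal cancer cell line kept as a monolayer in RPMI-1640 with fetal bovine serum. Of 6 libraries, 3 came from cells given no treatment and 3 from cells given 5-fluorouracil (5-FU), a pyrimidine analogue that inhibits thymidylate synthase and enters RNA and DNA, at its IC10, the concentration that inhibits by 10%. Both groups are the same unmodified line; molar dose and length of exposure are not stated in the labels. Whether the 3 samples of each kind were grown apart is not stated either, so a p-value reflects the spread among these samples alone, which could be technical.

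HMG proteins are small, abundant nuclear proteins that bind DNA or nucleosomes with little regard to sequence and alter how chromatin folds. The HMGA proteins hold AT-rich DNA in its minor groove through AT hooks and are typically made in embryonic and tumour cells. The HMGB proteins bend DNA with paired HMG boxes, and HMGB1 also acts outside the cell as a danger signal, while the HMGN proteins bind the nucleosome core itself and compete with linker histone H1.

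Total gene counts ran from 18459939 to 23495607 per library. Mitochondrially encoded genes took 4.66% to 4.88% of counts in the control libraries and 25.5% to 28.5% in the 5-FU libraries. The comparison was broad: edgeR called 70.2% of 19771 tested genes, 33.9% lower and 36.3% higher after 5-FU, with a median log2 fold change of 0.09 over all of them. With upper-quartile factors in place of TMM scaling that split became 23.3% lower and 48.6% higher, and the median moved to 0.45. All 8 colorectal epithelium markers were detected, summing to between 4686 and 6531 CPM (counts scaled to library size, TMM-normalized) in control and between 3506 and 4480 in 5-FU. Of these, 3 were called lower, 1 higher and 4 neither way. The 1 higher, KRT20, would not have been tested on its control counts alone, so its call is no support. The 5 leukocyte markers summed to 5.48 to 7.25 CPM over all libraries and the 3 endothelium markers to 2.17 to 3.12 in control and 3.50 to 5.50 in 5-FU. Of the endothelium markers VWF was called higher (0.97, edgeR adjusted p = 0.00934) and PECAM1 was not called (0.66, edgeR adjusted p = 0.0760). The 5 fibroblast markers, 2 of them at 0 in every library, summed to 15.7 to 20.0 CPM in control and 33.9 to 63.9 in 5-FU. Nearly all of that was COL1A1 (15.2 ± 3.06 and 42.4 ± 16.1 CPM), which was called higher (1.48, edgeR adjusted p = 2.04e-04). PDGFRB was not called (0.23, edgeR adjusted p = 0.565). All 9 genes of a list of cycling cell genes were called lower. CCNB1, a mitotic cyclin, had a log2 fold change of -5.15 (edgeR adjusted p = 3.80e-07), MCM5, a subunit of the replicative helicase, -3.12 (edgeR adjusted p = 6.60e-07) and CCNA2, the cyclin of S phase, -3.74 (edgeR adjusted p = 8.11e-07). In these bulk samples, fewer cells of a kind and less RNA per cell cannot be told apart.

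Of the 10 HMG genes, 9 fell after 5-FU and none rose. That is 9 of 10 against 33.9% of all tested genes called lower. HMGB2, HMGB3, HMGN2, HMGA1 and HMGB1 fell most, followed by HMGN1, while HMGN4, HMGN3 and HMGA2 fell by less than 1 on the log2 scale and HMGN5 did not pass the test. The median log2 fold change of the members was -1.95, against 0.09 over all tested genes. No member was higher at an unadjusted p under 0.05 in edgeR, and DESeq2 likewise called 9 lower and 0 higher.

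**Figure D1:**
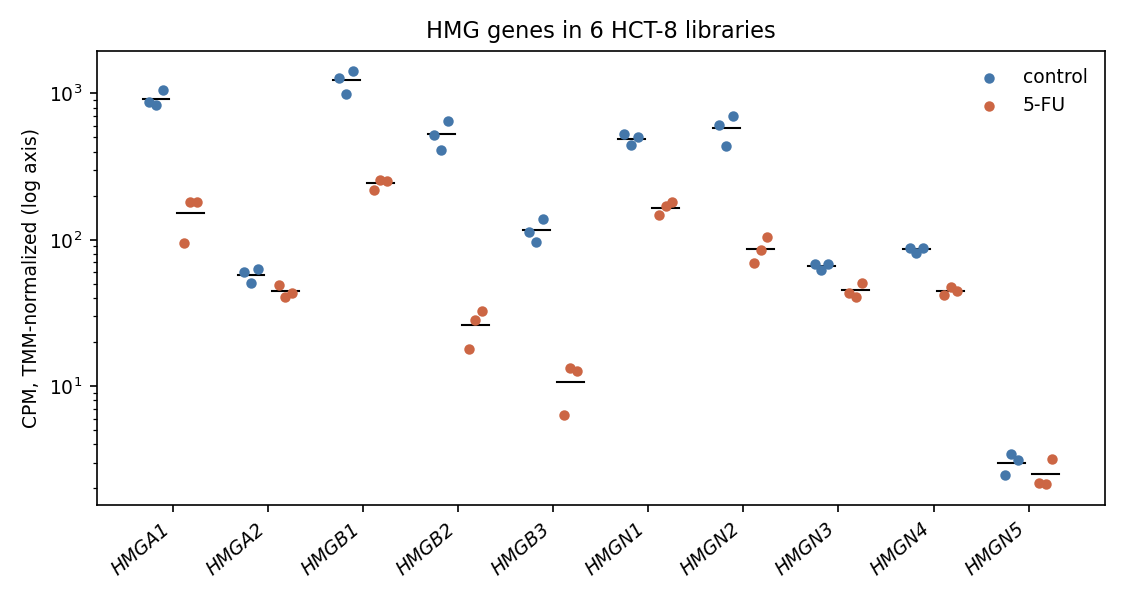
CPM (TMM-normalized, log axis) of the 10 HMG genes in each of 3 control and 3 5-FU libraries; points are libraries and bars are group means. The groups are apart for 9 genes and overlap for HMGN5, and HMGB2 spans the widest gap, from a control mean of 525 to a 5-FU mean of 26.4.

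In the same 9 genes every 5-FU library lay below every control library, compared with 35.9% of all tested genes; 74.3% of tested genes had groups that did not overlap in one direction or the other. The members are mostly abundant transcripts, and abundant genes fell more often here: of the 3955 genes in the top quintile of mean CPM, which hold 7 of the members, 60.4% were called lower, with a median log2 fold change of -0.53. Some libraries were low for many members at once. Control replicate 2 was the lowest control library for 9 of the 10 members, and 5-FU replicate 1 was the lowest 5-FU library for 7. The summed CPM of the 9 cycling genes was lowest in the same 2 libraries, with 2742, 1870 and 3281 in control replicates 1 to 3 and 137, 251 and 227 in 5-FU replicates 1 to 3. The part of the cycling cell genes in the members' decrease was not tested.

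The HMGB genes, which encode the DNA-bending proteins, differed most between the groups when each family was summed. Their counts summed to 1793 ± 273 CPM of the plain library total in control and 290 ± 30.2 in 5-FU (SD, n = 3 per group), a 6.19-fold difference beside 4.59-fold for the HMGA genes and 3.31-fold for the HMGN genes. HMGB2 is the member typical of dividing cells. Its gene lies on chr4:173331695-173335125, minus strand (GRCh38). HMGB2 stood at 516, 414 and 645 CPM in the control libraries and at 18.0, 28.3 and 32.8 CPM in the 5-FU libraries. No 5-FU library came near the control range. HMGB2 had a log2 fold change of -4.31 (SE 0.25, edgeR adjusted p = 5.58e-07), a 19.9-fold decrease, which ran from -4.52 to -4.08 with each library left out in turn.

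HMGB3, the X-linked member of the family (chrX:150980509-150990775, plus strand), followed. It stood at 113, 96.6 and 140 CPM in control and 6.32, 13.2 and 12.7 CPM in 5-FU. The first 5-FU library was again the lowest, and none came near the control range. The change on the log2 scale was -3.44 (SE 0.25, edgeR adjusted p = 1.32e-06). HMGB1, the most abundant member by count and the one released from dying cells as an alarmin, lies on chr13:30456704-30617597, minus strand. It fell from 1278, 997 and 1414 CPM to 219.8, 255 and 253 CPM. The 5-FU libraries lay close together and the controls spread more widely, with control replicate 2 lowest. The log2 fold change of HMGB1 was -2.34 (SE 0.17, edgeR adjusted p = 1.28e-06), so the transcript stood at 19.7% of its control level.

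The HMGN genes encode the nucleosome binders, and they divided into larger and smaller changes. HMGN2 (chr1:26472450-26475972, plus strand) fell furthest, from 613, 436 and 702 CPM to 69.3, 84.9 and 105 CPM. The change on the log2 scale was -2.75 (SE 0.21, edgeR adjusted p = 1.65e-06). HMGN1 (chr21:39342315-39349647, minus strand) fell from 524, 445 and 501 CPM to 147, 169 and 181 CPM, a log2 fold change of -1.57 (SE 0.14, edgeR adjusted p = 3.38e-06). For both genes the control and 5-FU ranges were well apart, with control replicate 2 the lowest control library.

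The other HMGN genes had smaller fold changes. HMGN4, a close relative of HMGN2 on chr6:26538405-26546254, plus strand, stood at 88.2, 81.8 and 88.2 CPM in control and 42.2, 47.8 and 44.8 CPM in 5-FU, a log2 fold change of -0.94 (SE 0.11, edgeR adjusted p = 2.09e-05). HMGN3 (chr6:79201245-79234738, minus strand) stood at 68.8, 62.0 and 68.1 CPM in control and 43.6, 40.8 and 50.9 CPM in 5-FU, a log2 fold change of -0.56 (SE 0.12, edgeR adjusted p = 0.00166). Both were tight within each group and apart between groups. With upper-quartile factors the HMGN3 call was lost, at -0.20 (edgeR adjusted p = 0.144). HMGN5, the member with a long acidic tail (chrX:81113701-81201942, minus strand), was scarce: the control libraries held 55, 76 and 63 of its counts and the 5-FU libraries 43, 41 and 67. Those are 2.47, 3.43 and 3.11 CPM against 2.19, 2.14 and 3.17 CPM, and the groups overlapped. Its log2 fold change was -0.26 (95% interval -0.83 to 0.31, edgeR adjusted p = 0.383), an interval that holds both 0 and the value of HMGN3. With upper-quartile factors its sign turned, to 0.092.

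The pair of HMGA genes, both tied to transformed and embryonic cells, differed in size of change. HMGA1 (chr6:34236873-34246231, plus strand) stood at 873, 829 and 1049 CPM in control and 95.4, 183 and 180.2 CPM in 5-FU. The first 5-FU library stood well below the other two, and all 3 lay far under the controls. The change on the log2 scale was -2.59 (SE 0.23, edgeR adjusted p = 4.14e-06). HMGA2 (chr12:65824131-65966295, plus strand) stood at 60.4, 50.4 and 62.9 CPM in control and 49.1, 40.7 and 43.3 CPM in 5-FU. The lowest control and the highest 5-FU library nearly met, and the change relative to the median of all tested genes was -0.48. The log2 fold change of HMGA2 was -0.38 (SE 0.13, edgeR adjusted p = 0.0187), and this call did not hold with upper-quartile factors (-0.02, adjusted p = 0.892) or plain library totals (-0.27, adjusted p = 0.0614). It was also lost without control replicate 3 (-0.36, adjusted p = 0.0549) or without 5-FU replicate 2 (-0.34, adjusted p = 0.0665), and with genes under a mean count of 50 left out (-0.13, adjusted p = 0.362), all in edgeR.

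**Figure D2:**
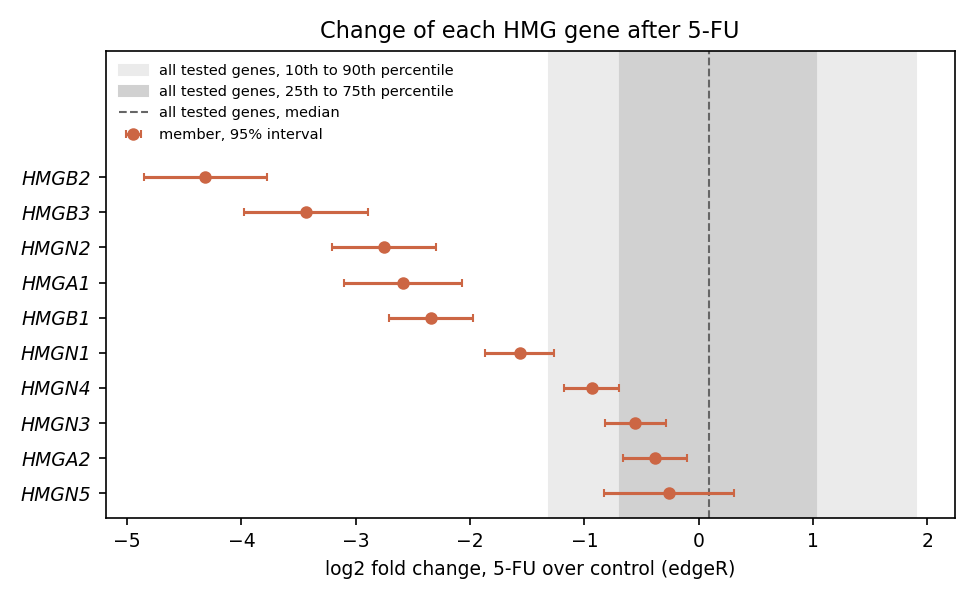
Log2 fold change of each HMG gene, 5-FU over control, from edgeR, with 95% intervals (points and bars), over the 10th to 90th and 25th to 75th percentiles of all 19771 tested genes (grey bands) and their median of 0.09 (dashed line). HMGB2, HMGB3, HMGN2, HMGA1, HMGB1 and HMGN1 lie below the 10th percentile of -1.31, and HMGN3, HMGA2 and HMGN5 lie between the 25th percentile of -0.68 and the median.

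Per gene length, HMGA1 had the highest group mean of the 10 in both groups. In deposited FPKM (fragments per kilobase of the gene's merged exons, scaled by library), the control means ran HMGA1 409, HMGN2 242, HMGB2 197, HMGB1 166, HMGN1 99.7, HMGN4 70.1, HMGN3 67.9, HMGB3 30.5, HMGA2 3.90 and HMGN5 1.29. The libraries overlapped between HMGN2 and HMGB2, between HMGB2 and HMGB1, and between HMGN4 and HMGN3, and the other neighbours in that order were apart. The deposited length of HMGA2, 15403 bases, covers the exons of all its isoforms and lowers its FPKM against genes with short exon sums such as HMGN3, 1014 bases.

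After 5-FU the order was HMGA1 62.0 FPKM, HMGN3 41.8, HMGN4 33.2, HMGN2 32.4, HMGN1 30.5, HMGB1 29.5, HMGB2 8.97, HMGA2 2.70, HMGB3 2.56 and HMGN5 0.974. HMGB2 stood 3rd in control and 7th in 5-FU, and HMGN3 stood 7th in control and 2nd in 5-FU. In this order HMGA1 overlapped HMGN3, and in 5-FU replicate 1 HMGN3 was the higher of the pair (38.8 against 37.0 FPKM). HMGN4, HMGN2 and HMGN1 each overlapped the next, HMGA2 overlapped HMGB3, and the other neighbours were apart.

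Each family was made up differently in the 2 groups. HMGB2 made up 49.9% ± 1.41 of the FPKM sum of the HMGB genes in control and 21.5% ± 3.51 in 5-FU, while HMGB1 went from 42.3% ± 1.50 to 72.5% ± 4.84 (SD, n = 3 per group). HMGN2 made up 49.8% ± 4.75 of the HMGN sum in control and 23.2% ± 2.42 in 5-FU, and HMGN3 14.3% ± 1.39 and 30.2% ± 2.33. The share of HMGN1 was 20.9% ± 1.75 and 22.0% ± 0.68, with libraries that overlapped. HMGA2 was a small part of the HMGA sum throughout, at 0.95% ± 0.076 in control and 4.66% ± 2.21 in 5-FU, where the first library reached 7.21% and the other two 3.26% and 3.50%.

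**Figure D3:**
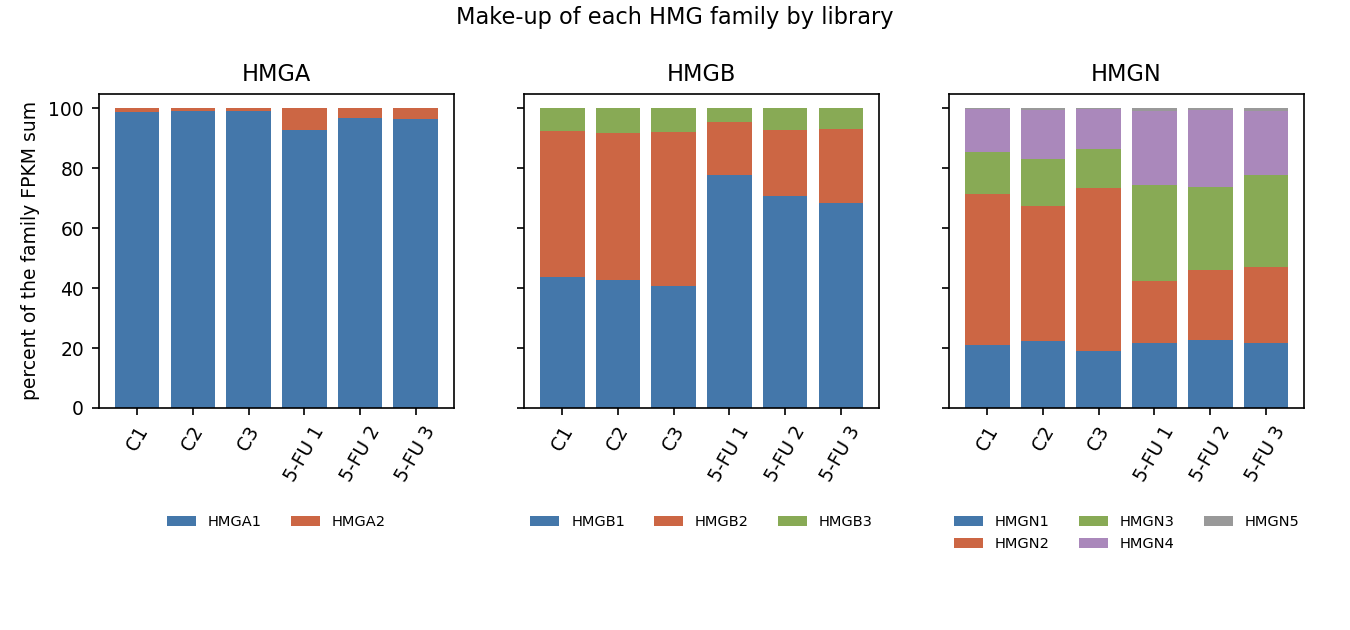
Percent of each family's FPKM sum held by each gene, for HMGA, HMGB and HMGN, in control (C1 to C3) and 5-FU libraries; each bar is 1 library and sums to 100. The HMGB2 part is between 49.0% and 51.5% in control and between 17.7% and 24.7% in 5-FU, and the HMGN3 part is at most 15.8% in control and at least 27.6% in 5-FU.

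Ratios of paralogs within a library do not depend on how libraries are scaled, and 7 were compared. In all 7 the control and 5-FU libraries were apart, and the exact two-sided permutation test gave p = 0.1 for each (0.1 adjusted over the 7), the smallest that 3 against 3 allows. The log2 ratio of HMGB2 to HMGB1 counts was -1.31, -1.27 and -1.13 in control and -3.61, -3.17 and -2.95 in 5-FU, a mean difference of -2.01. HMGB3 to HMGB1 differed by -1.16 and HMGN2 to HMGN1 by -1.18. In these pairs both genes fell, the first-named by more.

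The other 4 ratios were higher in 5-FU. That of HMGA2 to HMGA1 was -3.85, -4.04 and -4.06 in control and -0.96, -2.17 and -2.06 in 5-FU, a mean difference of 2.26. HMGN5, HMGN3 and HMGN4 to HMGN1 differed by 1.30, 1.01 and 0.63. In each of them the first-named transcript had the fold change nearer to 1.

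HMG genes have many processed pseudogenes, intronless copies of their mRNA that lie elsewhere in the genome, and short reads from parent and copy can be alike. The table holds 154 genes with such a symbol, 152 of them annotated as processed pseudogenes; 70 of the 154 were at 0 in every library and 14 passed the filter on low counts. One of these, HMGA1P4, named after its values were seen, is annotated as antisense and aligns with HMGA1 over 32 coding bases only. Of the 13 that are annotated as processed pseudogenes, 8 were called lower and 3 higher and 2 were not called. Among all 894 tested processed pseudogenes 30.0% were lower and 48.2% higher, with a median log2 fold change of 0.76. The 3 higher would not have passed the filter with the control libraries alone. HMGB1P1, HMGN1P36 and HMGN1P38, called lower and named after their values were seen, would not have passed it with the 5-FU libraries alone. Those calls are no support. HMGB1 has the most abundant copies. The stretch below, coding bases 151 to 240 of HMGB1 counted from the A of its start codon, is shown with that of 2 copies and of HMGB2. It shows how little a read can use to tell HMGB1P5 from HMGB1 and how much it has to tell HMGB2 from HMGB1. HMGB1P6 differs from HMGB1 more densely here than over its whole alignment, so the stretch is not typical of that copy. Capitals mark bases that differ from HMGB1.
HMGB1: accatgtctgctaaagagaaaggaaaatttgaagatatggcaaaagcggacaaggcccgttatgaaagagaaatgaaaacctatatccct
HMGB1P5: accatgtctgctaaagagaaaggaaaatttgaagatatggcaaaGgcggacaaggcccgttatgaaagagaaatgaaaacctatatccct
HMGB1P6: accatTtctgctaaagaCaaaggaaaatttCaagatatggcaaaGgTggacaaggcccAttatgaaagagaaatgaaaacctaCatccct
HMGB2: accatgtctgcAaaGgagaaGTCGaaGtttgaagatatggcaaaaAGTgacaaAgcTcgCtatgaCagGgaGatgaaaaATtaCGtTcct

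Over these 90 bases HMGB1P5 has 1 difference, HMGB1P6 has 7 and HMGB2 has 21. HMGB1P5 (chr3:22381819-22382929, plus strand) matches 98.8% of 512 aligned coding bases of HMGB1, and HMGB1P6 (chr15:71164770-71165415, minus strand) 98.6% of 642, whereas HMGB2 matches 78.2% of 618. HMGB1P5 was counted at 121 ± 22.8 CPM in control and 10.1 ± 1.87 in 5-FU, a log2 fold change of -3.58 (SE 0.18, edgeR adjusted p = 4.95e-07). HMGB1P6 was counted at 115 ± 25.8 and 16.1 ± 2.40 CPM, a log2 fold change of -2.83 (SE 0.19, edgeR adjusted p = 8.54e-07). Both fell, as HMGB1 did. In HMGB1 transcripts 54.7% and 52.9% of their 50-base windows are also found, and 25.8% and 39.3% of their 100-base windows. How far their counts are reads from HMGB1 mRNA cannot be told apart in a table of counts. Copies held 16.4% of the pooled counts of HMGB1 and its named pseudogenes in control and 11.3% in 5-FU.

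HMGN2 has the largest share of its own sequence in other genes. Of the 50-base windows of its main transcript 34.2% occur in another gene, against 18.0% for HMGN1, 15.7% for HMGB1 and 8.10% for HMGA1. The share is 3.82% for HMGB3, 0.54% for HMGB2 and 0.25% for HMGA2, and HMGN4 and HMGN5 have none. For HMGN3 it is 11.5%, all of it shared with HMGN3-AS1, which overlaps HMGN3 on the opposite strand. With 100-base windows the shares are smaller, at 11.8% for HMGN2, 7.63% for HMGB1, 5.82% for HMGN3 and 1.87% for HMGN1. They are then 0.12% for HMGB3 and 0% for HMGA1, HMGA2, HMGB2, HMGN4 and HMGN5. Coding bases 31 to 120 of HMGN2 are shown with its most counted copy and with HMGN4, the gene nearest to it in sequence. Capitals mark bases that differ from HMGN2.
HMGN2: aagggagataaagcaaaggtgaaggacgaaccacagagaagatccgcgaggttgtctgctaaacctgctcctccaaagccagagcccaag
HMGN2P3: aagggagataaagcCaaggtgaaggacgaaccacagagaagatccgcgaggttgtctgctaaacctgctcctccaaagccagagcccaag
HMGN4: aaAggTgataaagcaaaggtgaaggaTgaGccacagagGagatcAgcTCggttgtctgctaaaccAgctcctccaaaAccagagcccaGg

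HMGN4 differs from HMGN2 at 11 of these 90 bases and matches 86.3% of the 270 coding bases, while HMGN2P3 (chr16:26032539-26032811, minus strand) has 1 difference and matches 99.3%. HMGN2P3 was counted at 4.92 ± 1.28 CPM in control and 0.769 ± 0.085 in 5-FU, a log2 fold change of -2.67 (SE 0.29, edgeR adjusted p = 1.30e-05), beside -2.75 for HMGN2. The other tested copies, named after their values were seen, lay further from HMGN2. HMGN2P5, which matches 99.6% of the 270 coding bases, was at -1.21 (SE 0.29, edgeR adjusted p = 0.00273). HMGN2P46 was at 0.54 (SE 0.37, edgeR adjusted p = 0.210). HMGN4, which has no 50-base window in common with any other gene, fell by 0.94. The difference between HMGN2 and HMGN4 was not tested as a pair.

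The tested copies of HMGB3 and HMGB2, the members that fell furthest, were not called lower. HMGB3P24 (chr9:36303499-36304924, minus strand; 94.8% of 594 aligned coding bases of HMGB3) was counted at 1.98 ± 0.33 CPM in control and 2.54 ± 0.27 in 5-FU, a log2 fold change of 0.35 (SE 0.25, edgeR adjusted p = 0.229), while HMGB3 itself fell by 3.44. The pseudogenes that rose, named here after their values were seen, were HMGB2P1 (1.48), HMGA1P2 (1.26) and HMGB3P4 (1.21), all of them counted at no more than 40 reads in any library. They would not have passed the filter on low counts with the control libraries alone, so these calls are no support. HMGA1P2 was not called without control replicate 1 (0.96, edgeR adjusted p = 0.0535). The copies' share of pooled counts went from 2.57% to 34.7% for HMGB3, from 0.11% to 5.81% for HMGB2 and from 1.46% to 4.49% for HMGN2. In the first 5-FU library 50.4% of the counts of HMGB3 and its copies lay on copies, against 28.7% and 30.0% in the other two. Adding the named copies' counts to each parent changed no member's call and left HMGB3 at -2.86.

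**Figure D4:**
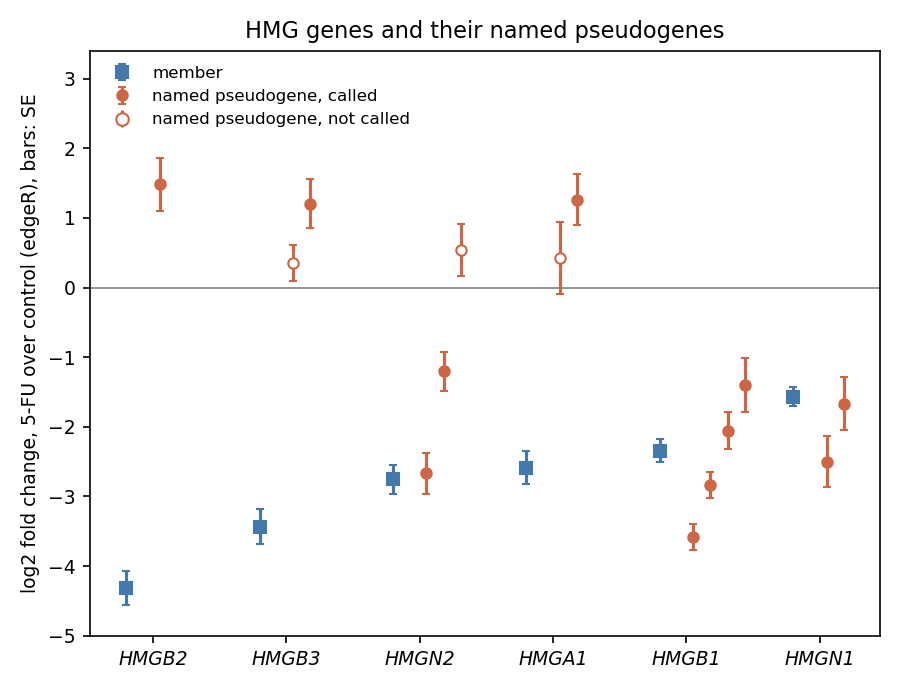
Log2 fold change, 5-FU over control, with SE (edgeR), of 6 HMG genes (squares) and of the 14 tested genes named as their pseudogenes, HMGA1P4 included (circles, filled where called at an adjusted p under 0.05). The copies of HMGB1 and HMGN1 lie between -3.58 and -1.40, and the circles of HMGB2, HMGB3 and HMGA1 lie above 0 in this fit.

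Antisense partners touch some of the members too, and the library kit as named does not mark strand. HMGN3-AS1 runs across 19.0% of the exonic bases of HMGN3 on the opposite strand. It rose from 51, 63 and 40 counts to 95, 91 and 94, a log2 fold change of 0.98 (SE 0.23, edgeR adjusted p = 0.00229), while HMGN3 fell by 0.56, and reads in the shared stretch cannot be told apart by strand. AC090673.1, named here after its values were seen, runs across 2.49% of the exonic bases of HMGA2 on the opposite strand and rose from 65, 70 and 54 counts to 165, 175 and 168 (log2 fold change 1.54, SE 0.19, edgeR adjusted p = 2.71e-05). RPSAP52, named likewise and antisense to HMGA2 with no exonic bases in common, had a log2 fold change of 0.54 (SE 0.32, edgeR adjusted p = 0.147). Of the 7 partners listed, 2 are in the table by name.

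Promoters were read from a RefSeq table on GRCh38.p14, which matched 8 of the 10 members with 12 windows of 250 bases before to 50 after a start site; HMGB2 and HMGA2 had no entry. Many genes of dividing cells carry CCAAT boxes and, near the start site, a cell-cycle element, searched here as CCAAT and TTTGAA on both strands. HMGB3 and HMGB1 each have a window with 3 CCAAT matches; 3.26% of all 35116 promoters in the table have at least 3 and 34.6% at least 1. The 250 bases before the start site of each of those windows are shown because they hold the most CCAAT matches among the members' windows. HMGN2 and HMGA1, which fell further than HMGB1, have fewer. Capitals mark CCAAT and TTTGAA. HMGB3 is at chrX:150983085-150983334, plus strand, and HMGB1 at chr13:30465937-30466186, minus strand.
HMGB3: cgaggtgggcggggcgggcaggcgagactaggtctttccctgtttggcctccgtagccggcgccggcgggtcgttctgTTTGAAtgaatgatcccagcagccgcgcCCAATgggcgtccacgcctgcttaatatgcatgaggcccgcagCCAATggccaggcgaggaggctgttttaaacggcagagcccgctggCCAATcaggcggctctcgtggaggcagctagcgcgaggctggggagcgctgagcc
HMGB1: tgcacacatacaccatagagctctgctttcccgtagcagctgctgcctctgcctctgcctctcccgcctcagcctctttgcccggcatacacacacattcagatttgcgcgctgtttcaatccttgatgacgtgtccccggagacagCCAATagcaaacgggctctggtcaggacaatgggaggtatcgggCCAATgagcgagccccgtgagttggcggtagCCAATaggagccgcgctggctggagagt

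In HMGB3 the CCAAT matches begin at -144, -101 and -55 from the start site and TTTGAA, held by 15.2% of all promoters, at -172; in HMGB1 the CCAAT matches begin at -103, -59 and -28. A window with at least 3 CCAAT and a TTTGAA match, as that of HMGB3, is found in 0.518% of all promoters. The other windows of HMGB1 have 1 and 0 CCAAT matches, the first of them with TTTGAA at -246, and the other window of HMGB3 has 0. The shares of all promoters count windows, of which a gene can have several. HMGN1 and HMGN3 have 2 CCAAT matches each, HMGN2 has 1, HMGA1 has 1 in each of its 2 windows, and HMGN4 and HMGN5 have none. The E2F core TTTNNCGC was in no member window and is in 6.89% of all promoters. These are matches of letters within a window, not binding sites.

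HMGA2, which kept 76.6% of its control level, is the textbook target of the let-7 microRNAs. The mature let-7a sequence (RefSeq, GRCh38.p14) is shown with its seed, bases 2 to 8, in capitals, followed by the 4 stretches after the HMGA2 stop codon that hold the complement of that seed, CTACCTC, in capitals.
let-7a: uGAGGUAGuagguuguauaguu
HMGA2 site 1: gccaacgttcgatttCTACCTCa
HMGA2 site 2: ccccactactcaataCTACCTCt
HMGA2 site 3: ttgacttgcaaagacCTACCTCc
HMGA2 site 4: aatcaaaacacactaCTACCTCt

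The matches begin 21, 1256, 1668 and 2521 bases after the stop codon, in the 3′ UTR of the GENCODE transcript used. HMGA1 has 1 such match and the other 8 members have none; of 19659 protein-coding genes 10.2% have at least 1, and 13 have at least 4. MicroRNAs were not measured. MIRLET7BHG, a host transcript of let-7 microRNAs, rose from 47.9 ± 9.56 to 108 ± 22.4 CPM, a log2 fold change of 1.18 (SE 0.18, edgeR adjusted p = 1.37e-04). XPO5, the exporter of microRNA precursors, fell by 0.61 (edgeR adjusted p = 8.63e-04), and IGF2BP3, an RNA-binding protein that binds HMGA2 mRNA, fell by 0.52 (edgeR adjusted p = 0.00349); with upper-quartile factors XPO5 was at -0.25 (edgeR adjusted p = 0.0614) and IGF2BP3 at -0.16 (edgeR adjusted p = 0.252). Of the 11 listed genes of the LIN28, IGF2BP and let-7 axis 7 were tested. Of these 2 fell, 1 rose and 4 were not called, with a median of -0.09, beside 33.9% lower and 36.3% higher over all tested genes. With upper-quartile factors 0 of the list were lower and 4 higher, beside 23.3% lower and 48.6% higher over all tested genes. LIN28A and LIN28B, which block let-7 processing, were under the filter on low counts, LIN28B at 0 in the controls and at 2, 1 and 2 counts in 5-FU.

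Other proteins with an HMG box, from transcription factors to chromatin remodelers, gave calls in both directions. Of 29 listed genes 27 were tested; 13 fell, 2 rose and 12 were not called, with a median log2 fold change of -0.23. Of all tested genes 33.9% were called lower and 36.3% higher. With upper-quartile factors the list gave 8 lower and 9 higher, beside 23.3% lower and 48.6% higher of all tested genes. SSRP1, the HMG-box subunit of the histone chaperone FACT, fell from 392 ± 55.4 to 78.9 ± 14.3 CPM (log2 fold change -2.31, SE 0.17, edgeR adjusted p = 1.37e-06). TFAM, which packages mitochondrial DNA with HMG boxes, fell by 1.50 (SE 0.12, edgeR adjusted p = 2.58e-06), and UBTF, the RNA polymerase I factor, by 1.36 (SE 0.13, edgeR adjusted p = 6.63e-06). The mitochondrial share of counts rose in the same libraries in which TFAM fell; a relation between them was not tested. The genes that rose, named after their values were seen, were HBP1, a repressor of cell-cycle genes (0.77), and SMARCE1, a SWI/SNF subunit (0.53); SMARCE1 was not called without control replicate 3 (0.41, edgeR adjusted p = 0.0548) or by DESeq2 (0.39, adjusted p = 0.0686).

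**Figure D5:**
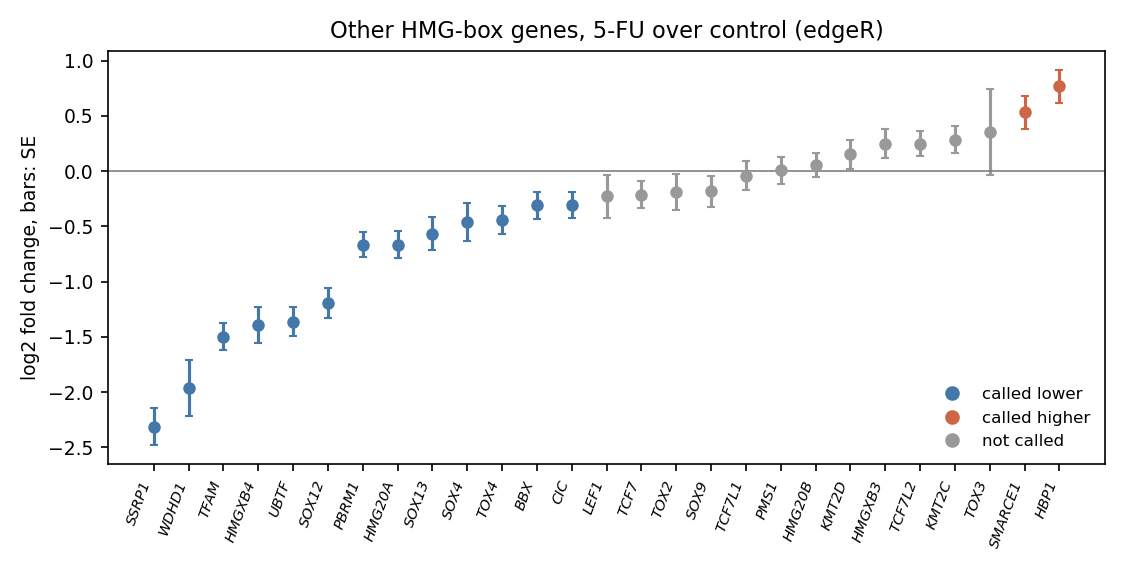
Log2 fold change with SE (edgeR), 5-FU over control, of the 27 tested genes of the list of other HMG-box proteins, sorted; blue marks genes called lower, orange genes called higher and grey genes not called. SSRP1 is lowest at -2.31 and HBP1 highest at 0.77.

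Linker histones, whose place on the nucleosome HMGN and HMGA proteins contest, were mostly under the filter on low counts, which 4 of 10 listed genes passed. Of these, 2 were called lower and 0 higher in edgeR, where 1 was higher at an unadjusted p under 0.05; limma-voom called 1 higher. The median over the 4 was 0.11, and over all tested genes 33.9% were called lower. H1FX fell from 78.3 ± 7.81 to 44.2 ± 8.19 CPM (log2 fold change -0.82, SE 0.15, edgeR adjusted p = 3.80e-04) and H1F0, the linker histone of resting cells, from 139 ± 18.5 to 107 ± 17.7 CPM (log2 fold change -0.38, SE 0.15, edgeR adjusted p = 0.0367), with groups that overlapped for H1F0. The H1F0 call was lost without control replicate 2 (-0.30, edgeR adjusted p = 0.0952), 5-FU replicate 1 (-0.31, edgeR adjusted p = 0.109) or 5-FU replicate 2 (-0.31, edgeR adjusted p = 0.155) and with upper-quartile factors (-0.02, edgeR adjusted p = 0.892) or plain totals (-0.27, edgeR adjusted p = 0.122), with genes under a mean count of 50 left out (-0.13, edgeR adjusted p = 0.447) and with the replicate number as a block (-0.38, edgeR adjusted p = 0.0555). HIST1H1C, a replication-dependent H1 gene, gave 68, 98 and 119 counts in the control libraries against 101, 146 and 158 after 5-FU, with a log2 fold change of 0.60 (SE 0.26, edgeR adjusted p = 0.0546). HIST1H1A, HIST1H1B, HIST1H1D and HIST1H1E, of the same kind, gave 0 to 8 counts in any library. How well these libraries capture such transcripts was not tested, so the low counts are not read as low expression.

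Receptors and partners of extracellular HMGB1 were mostly scarce in these cells, and 6 of 12 were under the filter; 2 of the others were called lower, 2 higher and 2 neither way, beside 33.9% lower and 36.3% higher over all tested genes. SDC1, syndecan-1, fell from 198 ± 45.8 to 87.7 ± 6.38 CPM (log2 fold change -1.17, SE 0.17, edgeR adjusted p = 7.97e-05). HAVCR2, which encodes TIM-3, was counted at 1, 2 and 1 in control and 26, 26 and 22 in 5-FU; it passed the filter on low counts through the 5-FU libraries alone, so it had to differ and its call is no support. SIGLEC10 was counted at 34, 25 and 80 in control and 6, 10 and 12 in 5-FU (edgeR adjusted p = 0.00224). It would not have passed the filter with the 5-FU libraries alone, so its call is no support either. TLR2, named after its values were seen, rose by 0.76 on the log2 scale. AGER, which encodes the receptor RAGE, had 8.80 ± 1.53 CPM in control and 8.10 ± 1.24 in 5-FU and was not called.

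The search for like patterns covered 11418 protein-coding genes whose mean count reached 100. The profiles over the 6 libraries nearest to that of HMGB2 were those of RPL22L1, a ribosomal protein paralog, NUF2, a kinetochore subunit, and CENPF, a mitotic kinetochore protein. Their distances, on centred log2 CPM, were 0.31, 0.32 and 0.37, and their log2 fold changes -4.33, -4.15 and -4.29. Nearest to HMGN5, the member that changed least, were ETFDH at 0.15, GCLM at 0.17 and SCPEP1 at 0.19. These genes were picked for their likeness, which is therefore a description over 6 libraries that share the group difference.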

How the data were processed

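Per the labels' protocols, RNA from TRIzol lysates was made into libraries with the NEBNext Ultra RNA kit. The build was GRCh38 and the tools named were featureCounts (1.5.0-p3), HISAT2 (2.0.5) and DESeq2 (1.16.1), per the submitters' processing notes, with no word on strand or on reads matching more than 1 gene. The authors deposited whole-number counts per gene and FPKM for 58735 genes, whose identifiers and positions all matched GENCODE release 29. The deposited FPKM equal count over gene length over 1 constant per library, which was 0.892 to 0.986 times the count total in control and 1.07 to 1.16 times in 5-FU, so FPKM levels and shares were read within a library or group, and FPKM were compared between groups only as an alternative.

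Groups came from the treatment label. Counts of all 6 libraries were fitted with edgeR 4.0.16 in R 4.3.3 (filterByExpr with minimum count 10, TMM, quasi-likelihood test, group alone, Benjamini-Hochberg over 19771 genes, called at an adjusted p under 0.05). The SE is the absolute log2 fold change before edgeR's shrinkage, divided by the square root of its F statistic. The log2 fold changes given are those after that shrinkage. Paralog ratios used counts plus 0.5 and an exact permutation test in SciPy 1.17.1. Identity came from local alignment in Biopython 1.88 of GENCODE 29 transcripts. Shared windows came from 50-base and 100-base words, matched on either strand. Within a group, pairs of libraries had a chi-square of 9.02 to 23.4 per gene, above counting noise, so none was treated as a duplicate. Total counts per library were 18459939 to 23495607.

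The members, the gene lists (other HMG-box genes, linker histones, HMGB1 receptors and partners, LIN28, IGF2BP and let-7 axis, antisense partners, cycling cell genes, cell type markers) and the tests were chosen with earlier results of these data known. The rule named all members, the 3 called genes of smallest adjusted p from each other list (the 2 most abundant where none was called), the 4 pseudogenes of highest mean CPM, and 3 genes of nearest profile to the members with the lowest and highest log2 fold change. AGER, LIN28A, LIN28B, PDGFRB, COL1A1, HIST1H1C and the scarce H1 genes were named after their values were seen. Alternatives were other size factors, filters, tests (DESeq2 1.42.0, limma 3.58.1), log2(FPKM + 1) and log2(FPKM + 0.1), the replicate number as a block, libraries left out in turn, mitochondrial genes left out and pseudogene counts added to their parents.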

Additional observations from a re-analysis of the deposited data

How the results depend on the processing

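Over 19 alternatives edgeR, DESeq2 or limma called 7 to 9 members lower and 0 higher. HMGB2, HMGB3, HMGN2, HMGA1, HMGB1, HMGN1 and HMGN4 kept their call in all 19, HMGN3 lost it with upper-quartile factors, and HMGA2 lost it in the 5 settings given with its value. HMGN5, never called, turned to 0.092 with upper-quartile factors, and HMGA1P4, annotated as antisense and at 3 to 14 counts, went from -0.013 without control replicate 2 to 0.73 without control replicate 3. HMGA1P2 and HMGB3P4 were not called by DESeq2 (adjusted p = 0.0793 and 0.0831). All 7 paralog ratios kept their direction in all 56 alternatives. Same-number correlations of the libraries were -0.07, -0.20 and 0.06, and only 5-FU replicate 3 correlated best with its own number. With 3 libraries per group such correlations cannot show whether same-numbered samples were handled together. With the replicate number as a block 6380 genes were called lower and 6863 higher, beside 6706 and 7171 without it. In the block fit 9 members were lower, and linker histones went to 1 lower and 1 higher.

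Short lists moved by a gene or more. The calls over all tested genes moved too. With upper-quartile factors 23.3% were lower and 48.6% higher. With plain totals 6042 of 19771 were lower and 7858 higher, and with a mean count of at least 50, 4935 and 5141 of 14068. Other HMG-box genes, 13 lower and 2 higher, went to 8 and 9 with upper-quartile factors, 8 and 7 with a mean count of at least 50, and 5 higher with plain totals; 1 was higher with no low-count filter, in DESeq2 and in all 3 FPKM settings, and 1 to 3 with a library left out. Linker histones, 2 lower and 0 higher, went to 1 and 1 with upper-quartile factors, plain totals and a mean count of at least 50, and 1 was higher in limma-voom; with a library left out they were 1 to 2 lower and 0 to 1 higher. HMGB1 receptors and partners, 2 lower and 2 higher, went to 1 lower with a mean count of at least 50 and to 1 and 1 in all 3 FPKM settings. The LIN28, IGF2BP and let-7 axis, 2 lower and 1 higher, went to 0 and 4 with upper-quartile factors, 1 lower with a mean count of at least 50, 2 higher with no low-count filter or with unfiltered FPKM, and 1 to 2 higher with a library left out. Antisense partners, 1 higher, were 2 with upper-quartile factors. Pseudogenes, 8 lower and 3 higher, went to 3 and 0 with a mean count of at least 50, where fewer are tested, to 8 higher with no low-count filter and 13 with unfiltered FPKM, and to 3 to 6 higher with a library left out. The cause of these moves was otherwise not tested.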
